A study of Homo sapiens with 3 samples.

Results

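Kelly is an established human neuroblastoma cell line in which MYCN is amplified and the receptor kinase ALK is activated by mutation, and TAE684 inhibits ALK. Single-cell RNA had been measured in 3 libraries, 1 each from sensitive cells kept in DMSO, intermediate resistant cells kept in 500 nM TAE684 and fully resistant cells kept in 1 µM TAE684. The CTCFL-high cells described here were 1287 of the 5843 fully resistant cells, or 22.0% (95% Clopper-Pearson interval 21.0 to 23.1), and of the 16586 cells of all 3 libraries. They were the cells with at least 4 CTCFL UMIs, where a UMI is a count of 1 RNA molecule. They were set against the 1135 cells of the same library with 0 CTCFL UMIs, called CTCFL-zero below, and 3421 cells with 1 to 3 UMIs lay between. Both classes therefore came from the same culture, the same 1 µM of TAE684, the same line and the same droplet run. Whether this culture grew from 1 clone was not given in the sources used here. Cells entered at 9500 UMIs or more, at least 500 genes and at most 20% of UMIs from mitochondrially encoded genes, and each was thinned at random to 9500 UMIs before levels were summed. The class was chosen from CTCFL counts, so all CTCFL values are a description, and CTCFL was left out of every total. With 1 library there is no replicate, no test was run, and intervals cover counting error only.

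CTCFL, also called BORIS, is the paralog of CTCF. CTCF is the zinc finger protein that binds insulators and, with the cohesin ring, anchors chromatin loops. CTCFL is normally confined to male germ cells, is silenced by promoter DNA methylation in most somatic cells, and is made again in some tumours. Kelly cells otherwise carry the noradrenergic programme of neuroblastoma, in which HAND and GATA factors go with the enzymes that make dopamine and noradrenaline. NEUROD1 is a proneural transcription factor of neurons and neuroendocrine cells.

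CTCFL (ENSG00000124092) had a level of 0.568 CPM (counts per 1000000 UMIs) in sensitive, 3.36 CPM in intermediate resistant and 128 CPM in fully resistant cells. In the sensitive library 50 cells had 1 CTCFL UMI and 1 cell had 2, of 4907. In the intermediate resistant library 293 cells had 1, 18 had 2 and 1 had 4, of 5836. In the fully resistant library 1441 cells had 1, 1150 had 2, 830 had 3, 524 had 4, 319 had 5 and 444 had 6 or more, with a maximum of 14. The 830 cells with 3 UMIs lay just outside the rule and the 524 with 4 just inside it. The counts had a single peak, at 1 UMI, and no gap at the limit. After thinning, CTCFL had a mean of 1.21 UMIs per fully resistant cell and a variance to mean ratio of 1.33, against a median of 1.10 (range 1.03 to 1.77) for the 50 genes nearest to it in mean, of which 5 were above it. A count of 0 was a weak statement about a cell. At the median total of a CTCFL-zero cell, 0 UMIs allow a level of up to 198 CPM (3 UMIs), which is above the library's mean. Of the 1287 CTCFL-high cells, 69 had 0 CTCFL UMIs after thinning. Barcodes with fewer than 100 UMIs, which hold free RNA, had 117 CPM of CTCFL in this library. Between libraries, 46 cell barcodes were shared with the intermediate resistant and 53 with the sensitive one.

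**Figure D1:**
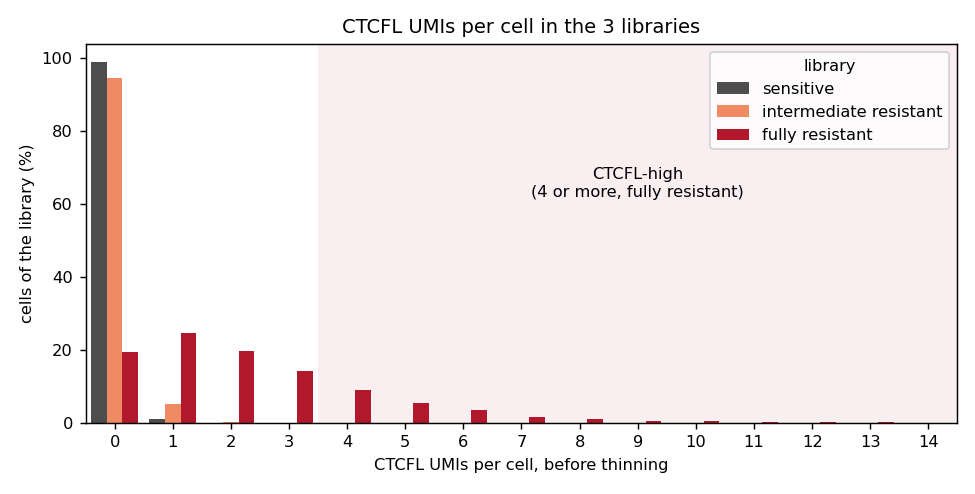
Share of cells (%) by the number of CTCFL UMIs per cell before thinning, in the sensitive, intermediate resistant and fully resistant libraries. The shaded range marks 4 or more UMIs, which held no sensitive cell, 1 intermediate resistant cell and 1287 fully resistant cells.

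Promoters are shown for CTCFL, for NEUROD1 and for HAND1 and CHGA, a noradrenergic factor gene and a granule protein gene that stood lower in CTCFL-high cells. They run from 250 bases before to 50 bases after the start, 5′ to 3′ on the gene's strand, from RefSeq on GRCh38.p14, while the deposited counts were made on hg19. Capitals mark AGGGGGC and its reverse complement GCCCCCT, the core of the motif that CTCF and CTCFL share. The RefSeq table gives 3 starts for CTCFL, and the second, at chr20:57525091-57525390 on the minus strand, holds 3 matches and 15 CG dinucleotides. The first holds 0 matches and 19 CG, the other remaining start 1 match and 2 CG, and the second is shown for having the most matches.
CTCFL: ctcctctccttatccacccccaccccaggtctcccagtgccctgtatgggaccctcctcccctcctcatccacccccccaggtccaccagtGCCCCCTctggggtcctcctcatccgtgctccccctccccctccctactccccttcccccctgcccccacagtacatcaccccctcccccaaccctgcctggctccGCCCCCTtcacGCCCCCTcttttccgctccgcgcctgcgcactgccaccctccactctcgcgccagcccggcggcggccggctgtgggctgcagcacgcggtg
NEUROD1, at chr2:181680468-181680767 on the minus strand, holds 31 CG dinucleotides and 0 matches.
NEUROD1: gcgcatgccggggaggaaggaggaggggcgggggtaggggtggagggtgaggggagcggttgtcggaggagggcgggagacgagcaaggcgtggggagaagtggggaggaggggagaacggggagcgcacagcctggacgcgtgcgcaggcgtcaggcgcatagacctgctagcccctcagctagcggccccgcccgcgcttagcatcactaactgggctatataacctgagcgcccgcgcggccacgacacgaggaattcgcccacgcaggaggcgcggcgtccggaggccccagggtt
HAND1, at chr5:154478178-154478477 on the minus strand, holds 1 match.
HAND1: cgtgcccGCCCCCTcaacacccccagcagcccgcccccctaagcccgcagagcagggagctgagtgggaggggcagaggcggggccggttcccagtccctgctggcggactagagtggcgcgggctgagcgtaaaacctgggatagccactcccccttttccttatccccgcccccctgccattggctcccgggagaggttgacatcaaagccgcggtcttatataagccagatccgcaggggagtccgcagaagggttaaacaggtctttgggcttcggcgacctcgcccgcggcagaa
CHGA, at chr14:92922900-92923199 on the plus strand, holds 1 match.
CHGA: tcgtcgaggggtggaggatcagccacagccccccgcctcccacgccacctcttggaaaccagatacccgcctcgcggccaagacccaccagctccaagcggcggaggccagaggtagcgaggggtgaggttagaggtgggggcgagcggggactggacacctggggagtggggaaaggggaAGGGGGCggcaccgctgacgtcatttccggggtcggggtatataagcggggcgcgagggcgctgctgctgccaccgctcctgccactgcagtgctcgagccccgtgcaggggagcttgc
At least 1 match stood in a promoter window of 23.7% of the genes higher in CTCFL-high cells, of 29.5% of the genes lower there and of 24.5% of all genes tested, counted over genes with an entry. Over all genes of the table the share was 16.6%. Of the 12 highest genes before matching 8 had an entry, 3 of them with a match, and of the 12 lowest 9, 4 of them with a match. The promoters printed above are examples and no contrast of the classes. DBH, lower in CTCFL-high cells, held 0 matches, and CENPA, higher there, held 1. A match is a string of letters and not a bound site, and no binding was measured.

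CTCFL-high cells also differed from CTCFL-zero cells in depth, phase and ribosomal share, which are given here because they moved with every comparison below. Their median UMI total was 19474, against 15134 in CTCFL-zero cells, and 128 (9.95%) against 11 (0.969%) exceeded 30000 UMIs. The classes were set on CTCFL counts before thinning, which a deeper cell reaches more easily. This difference in depth therefore follows in part from the rule and is no trait of the class by itself. Ribosomal protein genes took 31.3% of thinned UMIs, against 35.8% in CTCFL-zero cells, and mitochondrially encoded genes 6.33% against 6.92%. The phase calls differed most. G2/M was called in 55.5% (52.7 to 58.2) of CTCFL-high cells, against 20.8% (18.5 to 23.3) of CTCFL-zero cells. S phase was called in 27.2% against 36.7%, and G1 in 17.3% against 42.6%. Across strata of 0, 1, 2, 3, 4 or 5, and 6 or more CTCFL UMIs, the G2/M share was 20.8%, 28.9%, 40.9%, 46.4%, 48.3% and 69.1%. The thinned CTCFL level itself was 101 CPM (95.8 to 106) in G1, 116 CPM (111 to 121) in S and 157 CPM (152 to 162) in G2/M cells, so G1 cells carried it too. Phase scores lay within 0.05 of a limit in 37.9% of CTCFL-high and 27.4% of CTCFL-zero cells. For this reason levels are also given after the CTCFL-zero cells were weighted to the CTCFL-high cells in phase and in bins of 2000 UMIs (matched). Matching used 1219 CTCFL-high cells, and its weights gave the CTCFL-zero cells the precision of 287 equally weighted cells. No interval was computed for matched ratios.

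**Figure D2:**
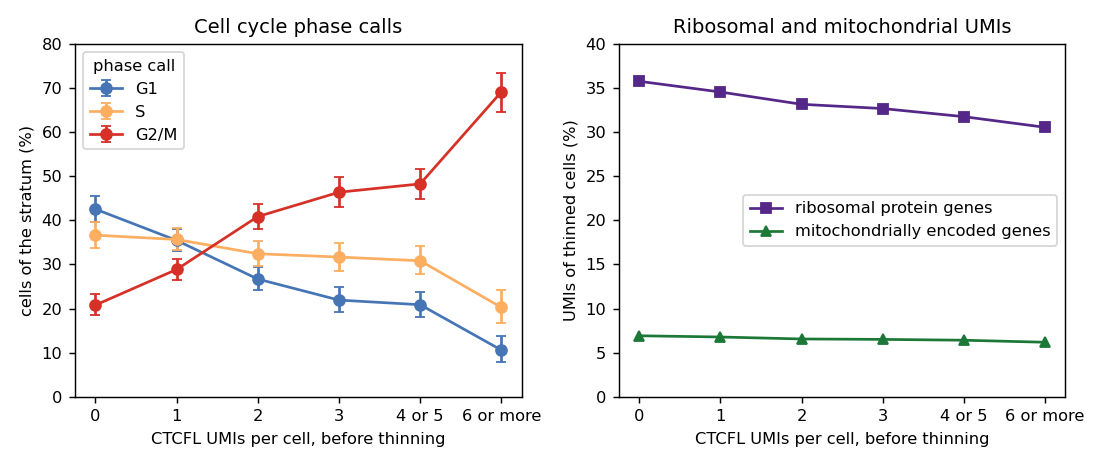
Left, share of cells (%) called G1, S or G2/M, with 95% binomial intervals, by CTCFL UMIs per cell. Right, share of thinned UMIs (%) in ribosomal protein and mitochondrially encoded genes. The G2/M share runs upward to 69.1% in the stratum with 6 or more UMIs while the ribosomal share runs downward to 30.6%.

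A gene was called where the class with more of it had at least 20 CPM and stood at least 25% above the other class. Of 5123 genes tested, 851 (16.6%) were higher and 137 (2.67%) lower in CTCFL-high cells, and at a ratio of at least 1.5 these were 176 (3.44%) and 47 (0.917%). The median log2 ratio of all genes was 0.15, not 0. Under TMM scaling it was 0.03, and 335 genes (6.78%) were higher and 295 (5.97%) lower, so 53.2% of calls pointed upward, against 86.1% in the main scaling. Median-of-ratios scaling gave 53.6% and leaving ribosomal and mitochondrial genes out of the totals 51.8%. A direction near that common shift therefore depends on the scaling. After matching, 427 genes (8.23%) were higher and 141 (2.72%) lower, with a median of 0.08, and 224 of the 851 higher and 61 of the 137 lower genes met the rule in both.

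Mitotic genes filled the upper end. Of 49 measured genes of the G2 and M phase list, all 49 were higher in CTCFL-high cells, beside 16.6% of all genes. Under TMM scaling 43 were higher, beside 6.78%. The median log2 ratio of the list was 0.97 against 0.15 for all genes. UBE2C, the ubiquitin conjugating enzyme of the anaphase-promoting complex, had 601 CPM in CTCFL-high and 212 CPM in CTCFL-zero cells, a ratio of 2.83 (2.70 to 2.96). TOP2A, topoisomerase II alpha, had 237 against 84.2 CPM, and the mitotic kinase gene AURKA 231 against 83.0 CPM. The helicase gene PIF1 had the highest ratio of the 5123 genes tested, 3.64 (3.11 to 4.28), at 65.4 against 18.0 CPM. CENPA, which encodes the centromeric histone, had 174 against 68.0 CPM, the spindle protein gene PRC1 96.0 against 39.7 CPM and the cyclin-dependent kinase gene CDK1 83.0 against 35.1 CPM. With UMI totals alone matched, the ratio was 1.86 for UBE2C, 1.78 for TOP2A, 1.75 for AURKA, 1.85 for PIF1 and 1.68 for CDK1. In that setting the list median was 0.70, and 46 of 49 members were higher, beside 864 of 5146 genes tested. After matching for phase as well, the ratio was 1.16 for UBE2C, 1.09 for TOP2A, 1.06 for AURKA, 1.04 for PIF1 and 1.12 for CDK1. Then 3 of 49 list members were higher, beside 8.23%. The phases were called from this list, so its values after matching follow in part from the matching. Of 33 measured S phase genes, 8 were higher and none lower, beside 16.6% and 2.67% of all genes. After matching 1 of 34 was higher and 1 lower, beside 8.23% and 2.72%.

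NEUROD1 stood apart from the mitotic genes. NEUROD1 (ENSG00000162992) had 163 CPM (156 to 171) in CTCFL-high cells, against 75.7 CPM (70.6 to 81.1) in CTCFL-zero cells, a ratio of 2.16 (1.99 to 2.35). It was 1.94 after matching, and 2.50 within G1, 2.43 within S and 1.67 within G2/M cells. Its level over the strata of 0, 1, 2, 3, 4 or 5, and 6 or more CTCFL UMIs was 75.7, 84.9, 109, 124, 157 and 175 CPM. In all phases together the level was thus higher at every step, including the strata that the 2 classes did not use. In G1 cells alone it was 73.0, 69.4, 85.7, 114, 158 and 276 CPM, so the first step was not upward there.

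NEFM (ENSG00000104722), the medium neurofilament protein of axons, had 968 CPM in CTCFL-high and 477 CPM in CTCFL-zero cells, a ratio of 2.03 (1.96 to 2.10), and 1.90 after matching. Over the same strata it had 477, 535, 630, 697, 952 and 996 CPM. GKAP1, an anchoring protein of cGMP-dependent kinase, had 57.5 against 23.6 CPM, a ratio of 2.44 (2.11 to 2.83), and 1.74 after matching. Among the 12 genes with the highest unmatched ratio, GKAP1 was the only 1 that also stood among the 12 highest after matching.

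HES6, a HES family factor that favours neuronal differentiation, had 390 against 249 CPM, a ratio of 1.57 (1.49 to 1.64), which was 2.08 in G1, 1.41 in S and 1.14 in G2/M cells. INSM1, a zinc finger factor of neuroendocrine cells, had 22.3 against 13.6 CPM, a ratio of 1.63 that was 1.04 in G2/M cells, and SOX2, a factor of neural progenitors, 23.0 against 18.1 CPM, a ratio of 1.27 that was 1.17 under TMM scaling. Of 11 measured proneural and progenitor factors 4 were higher, NEUROD1 and these, and none lower, beside 16.6% and 2.67% of all genes. Their median was 0.22 against 0.15 for all genes. After matching 3 were higher, beside 8.23%, and within G2/M cells 1, beside 449 of 5299 genes tested. The other measured factors were not called. NEUROD4, a NEUROD1 relative, had 91.6 CPM in CTCFL-high and 86.4 CPM in CTCFL-zero cells, a ratio of 1.06 (0.971 to 1.16) that was 0.978 under TMM scaling and 1.22 after matching. NEUROD1 had 4.47 CPM in sensitive, 6.31 CPM in intermediate resistant and 111 CPM in fully resistant cells, and NEUROD4 had 0.0109, 2.96 and 85.3 CPM.

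Genes for making noradrenaline were lower in CTCFL-high cells. TH (ENSG00000180176), tyrosine hydroxylase, the first enzyme of catecholamine synthesis, had 137 CPM (131 to 144) in CTCFL-high and 316 CPM (306 to 327) in CTCFL-zero cells, a level 2.31-fold lower (2.18 to 2.45). After matching it was 1.99-fold lower, and within phases 2.28-fold in G1, 2.11-fold in S and 1.28-fold in G2/M cells. Over the strata from 0 to 6 or more CTCFL UMIs, TH had 316, 303, 207, 192, 151 and 110 CPM. In G1 cells alone TH had 424, 416, 271, 299, 191 and 166 CPM. DBH, dopamine beta-hydroxylase, which makes noradrenaline from dopamine, had 265 against 490 CPM, 1.85-fold lower (1.77 to 1.93), and 490, 442, 360, 325, 284 and 230 CPM over the strata. It was 1.57-fold lower after matching and 1.17-fold lower within G2/M cells. DDC, the decarboxylase between these enzymes, had 223 against 297 CPM. GCHFR, the feedback regulator of the enzyme that starts synthesis of TH's cofactor, had 71.8 against 130 CPM.

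Proteins of secretory granules went the same way in part. CHGA, chromogranin A, had 143 against 302 CPM, 2.10-fold lower (1.98 to 2.23) and 1.66-fold lower after matching. The granule chaperone gene SCG5 had 43.7 against 75.9 CPM, and CARTPT, a neuropeptide precursor, 15.5 against 44.6 CPM, 2.87-fold lower (2.42 to 3.41), and 1.30-fold in G2/M cells (0.867 to 1.91). SCG2, another granin, was higher, at 28.1 against 20.8 CPM. Of 14 measured catecholamine and neuropeptide genes, 7 were lower and 1 higher, beside 2.67% and 16.6% of all genes. Their median was -0.24 against 0.15 for all genes. After matching 6 were lower and none higher, beside 2.72% and 8.23%. TMM scaling also gave 7 lower and 1 higher, beside 5.97% and 6.78%. Within G2/M cells 3 of 13 were lower and 1 higher, beside 238 and 449 of 5299 genes tested.

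Noradrenergic factors were called in either direction. HAND1, a basic helix-loop-helix factor, had 86.6 CPM in CTCFL-high and 177 CPM in CTCFL-zero cells, 2.04-fold lower (1.89 to 2.20), which was 2.18-fold in G1 and 1.15-fold (0.972 to 1.36) in G2/M cells. TFAP2B had 58.7 against 100.1 CPM, GATA2 64.8 against 104 CPM and PHOX2A 238 against 373 CPM. The PHOX2A call was lost after matching. DACH1, a factor of the retinal determination family, was on the other side, at 80.3 against 57.2 CPM. HAND2 had 273 against 307 CPM and ISL1 106 against 104 CPM. Of 15 measured adrenergic factors 3 were higher and 4 lower, beside 16.6% and 2.67% of all genes, with a median of -0.07 against 0.15. TMM scaling gave 2 higher and 5 lower, beside 6.78% and 5.97% of all genes. Matching gave 1 higher and 3 lower, beside 8.23% and 2.72%. MYCN had 442 against 465 CPM, a level 1.05-fold lower, and 1.05 times as high after matching. All 6 neuroblastoma identity markers were measured in both classes.

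**Figure D3:**
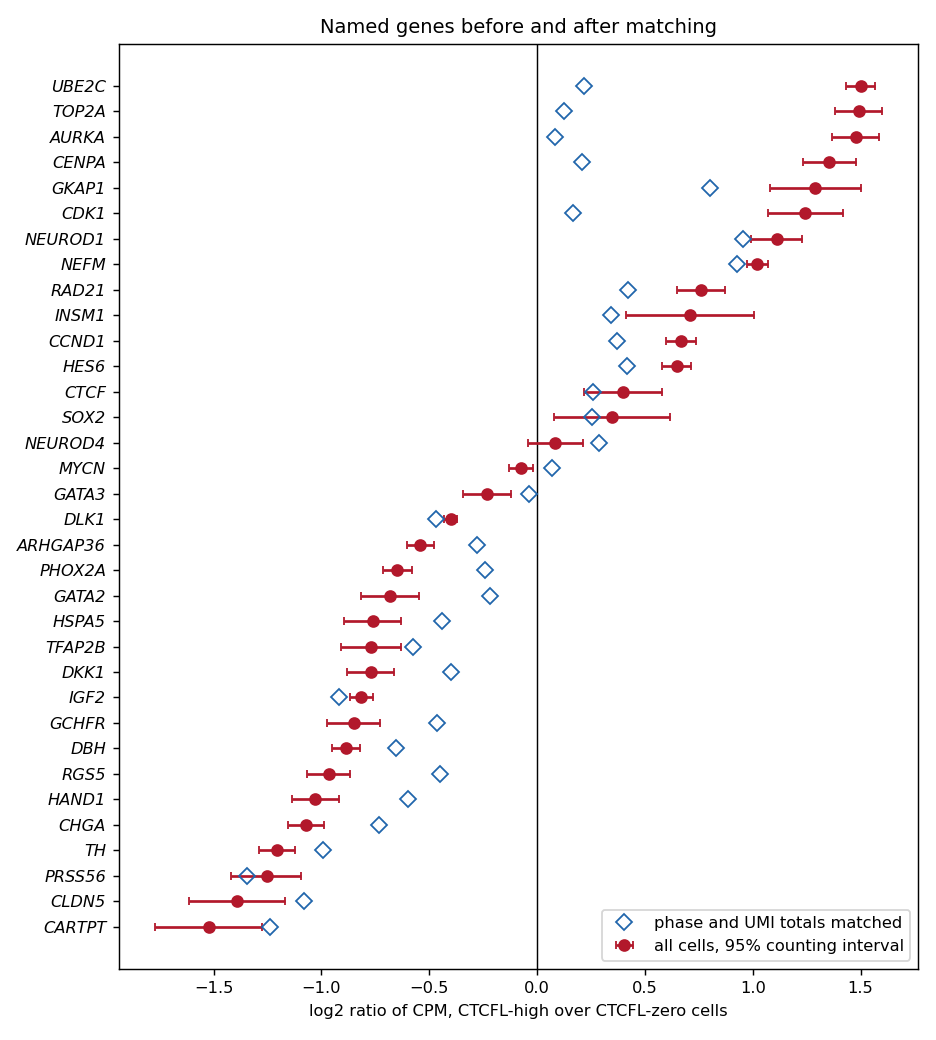
Log2 ratio of CPM, CTCFL-high over CTCFL-zero cells, for named genes in all cells (filled points with 95% counting intervals) and after matching for phase and UMI total (open diamonds). UBE2C, TOP2A and AURKA lie close to 0 after matching, while NEUROD1 and NEFM on the right and TH and PRSS56 on the left keep most of their distance. The diamonds carry no interval.

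**Figure D4:**
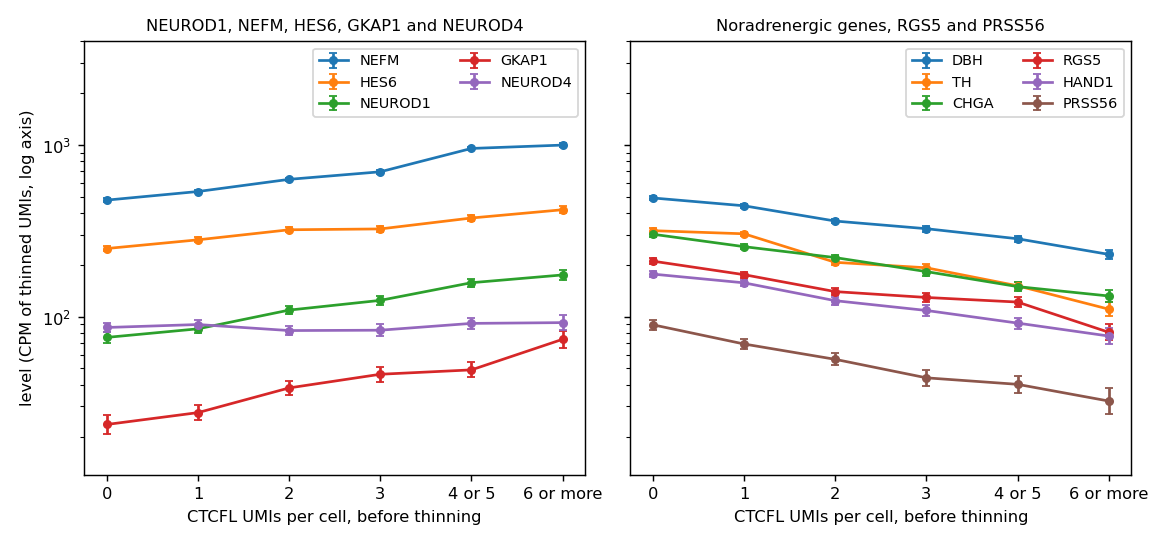
Level in CPM of thinned UMIs (log axis, 95% counting intervals) by CTCFL UMIs per cell. NEUROD1 runs from 75.7 CPM at 0 UMIs to 175 CPM at 6 or more, TH from 316 to 110 CPM, and the NEUROD4 level shows no such run.

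NEUROD1 and TH were then counted cell by cell after thinning. At least 1 NEUROD1 UMI was found in 49.3% (46.6 to 52.1) of CTCFL-high and 30.3% (27.6 to 33.1) of CTCFL-zero cells, and in 4.12% of sensitive cells thinned alike. In G1 cells alone the shares were 50.2% and 25.7%. At least 1 TH UMI was found in 43.4% (40.6 to 46.1) of CTCFL-high and 60.4% (57.5 to 63.3) of CTCFL-zero cells. Cells with NEUROD1 and without TH made up 33.2% of the CTCFL-high class, against 15.8% of the CTCFL-zero class. Cells with TH and without NEUROD1 made up 27.2% against 45.9%. Those with both were 16.2% against 14.5%, and those with neither 23.5% against 23.8%. The classes differed in the shares with 1 of the 2 genes and little in the shares with both or neither. Neither gene split the classes cleanly, since TH was found in many CTCFL-high cells.

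Other genes at the lower end had varied roles. PRSS56, a serine protease gene, had 37.6 CPM in CTCFL-high and 89.6 CPM in CTCFL-zero cells, 2.39-fold lower (2.13 to 2.67), and 2.54-fold after matching. Within phases it was 1.81-fold lower in G1, 2.83-fold in S and 1.15-fold in G2/M cells, where the interval included 1 (0.883 to 1.49). It was found in 15.5% of CTCFL-high and 26.7% of CTCFL-zero cells, and in 0.0611% of sensitive cells. The tight junction gene CLDN5 had 19.5 against 51.0 CPM, IGF2, an insulin-like growth factor, 374 against 658 CPM, and DKK1, a secreted Wnt antagonist, 93.2 against 159 CPM. RGS5, a regulator of G protein signalling, had 108 against 210 CPM, 1.95-fold lower and 1.37-fold lower after matching. For the 12 highest and the 12 lowest genes before matching, each level was ordered over the 6 strata without a reversal, though the end strata had been used to choose them.

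After matching, the 12 genes with the highest ratio were NEUROD1, NEFM, C11orf96, GKAP1, HPCA, MAB21L1, PSPC1, ZNF385D, NCAPG, KLHDC8A, PPAPDC1A and NDUFAF6, from 1.94 for NEUROD1 to 1.45 for NDUFAF6. HPCA encodes the neuronal calcium sensor hippocalcin, at matched levels of 54.4 CPM in CTCFL-high and 33.3 CPM in CTCFL-zero cells, and NCAPG a condensin subunit, at 60.0 against 40.4 CPM. The 12 with the lowest ratio were PRSS56, TH, IGF2, CHGA, DBH, CRABP1, HAND1, C1QL1, DYNLT1, TFAP2B, SCG5 and ASS1. CRABP1, which binds retinoic acid, had matched levels of 355 against 558 CPM, and ASS1, an enzyme of arginine synthesis, 65.6 against 91.4 CPM. Each gene of both lists kept its direction in G1, S and G2/M cells taken separately. That follows in part from the choice, which used a phase-weighted ratio of the same cells. In the higher list, only C11orf96, MAB21L1 and PSPC1 had a matched ratio above all 3 phase ratios, which were not matched for UMI total. For C11orf96 it was 1.76, against 1.23 in G1, 1.72 in S and 1.45 in G2/M cells. Some phase ratios lay near 1 with intervals that included 1. These were 1.00 (0.796 to 1.26) for NCAPG in S and 1.08 (0.865 to 1.37) for MAB21L1 in G2/M cells. For C1QL1 in G1 cells it was 0.888 (0.690 to 1.13), among others. This pair of lists was chosen after values were seen, and 7 of its 12 lower genes stood also among the 12 lowest unmatched.

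CTCF, the paralog, had 50.8 CPM in CTCFL-high and 38.6 CPM in CTCFL-zero cells, a ratio of 1.32 (1.16 to 1.49), which was 1.22 under TMM scaling and 1.20 after matching. RAD21, the cohesin subunit cut at anaphase, had 156 against 92.3 CPM, a ratio of 1.69 (1.57 to 1.83). It was 1.34 after matching and 1.15 in G2/M cells. The ring subunit genes SMC1A and SMC3 had 101 against 72.4 CPM and 321 against 241 CPM. Of 12 measured CTCF and cohesin genes, 8 were higher and none lower, beside 16.6% and 2.67% of all genes. Under TMM scaling 4 were higher, beside 6.78%. After matching only RAD21 was higher, 1 of 12, a share near the 8.23% of all genes. CTCF is itself a member of the G2 and M phase list. DNMT1, the maintenance DNA methyltransferase, had 240 against 167 CPM. Of 6 measured DNA methylation genes 3 were higher, beside 16.6% of all genes, and after matching 1, beside 8.23%. Of 7 measured cancer-testis genes 1 was higher, MAGEA3, at 21.4 against 16.9 CPM, and none lower, a share near the 16.6% of all genes. That call was lost under TMM scaling, at a ratio of 1.17, and after matching, at 1.24. PRAME had 140 against 144 CPM.

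The folding genes of the endoplasmic reticulum were lower in part. Of 16 measured ER chaperone genes 8 were lower and none higher, beside 2.67% and 16.6% of all genes, with a median of -0.28. After matching 4 were lower and none higher, beside 2.72% and 8.23%. Within G2/M cells the direction turned, with 2 higher and 2 lower, beside 449 and 238 of 5299 genes tested. The median there was 0.12, against 0.03 for all genes. HSPA5, the chaperone BiP, had 65.0 against 110 CPM, 1.70-fold lower (1.55 to 1.86), and 1.12-fold in G2/M cells. HERPUD1, of ER-associated degradation, had 22.4 against 39.1 CPM, 1.75-fold lower, and 1.05-fold in G2/M cells. XBP1, a factor of the unfolded protein response, had 37.6 against 56.4 CPM. Of 13 heat shock and immediate early genes 6 were higher and none lower, beside 16.6% and 2.67% of all genes. Under TMM scaling 3 were higher and 1 lower, beside 6.78% and 5.97%. After matching 1 of 12 was higher, a share near the 8.23% of all genes. HSP90AA1, a cytosolic chaperone, had 782 against 557 CPM, a ratio of 1.40 that was 1.22 after matching. Ribosomal protein genes had a median log2 ratio of -0.20, and 7 of 81 were lower, beside 2.67% of all genes. Under TMM scaling 37 were lower, beside 5.97%. The summed level of these genes was 313515 CPM in CTCFL-high cells, against 357718 CPM in CTCFL-zero cells.

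**Figure D5:**
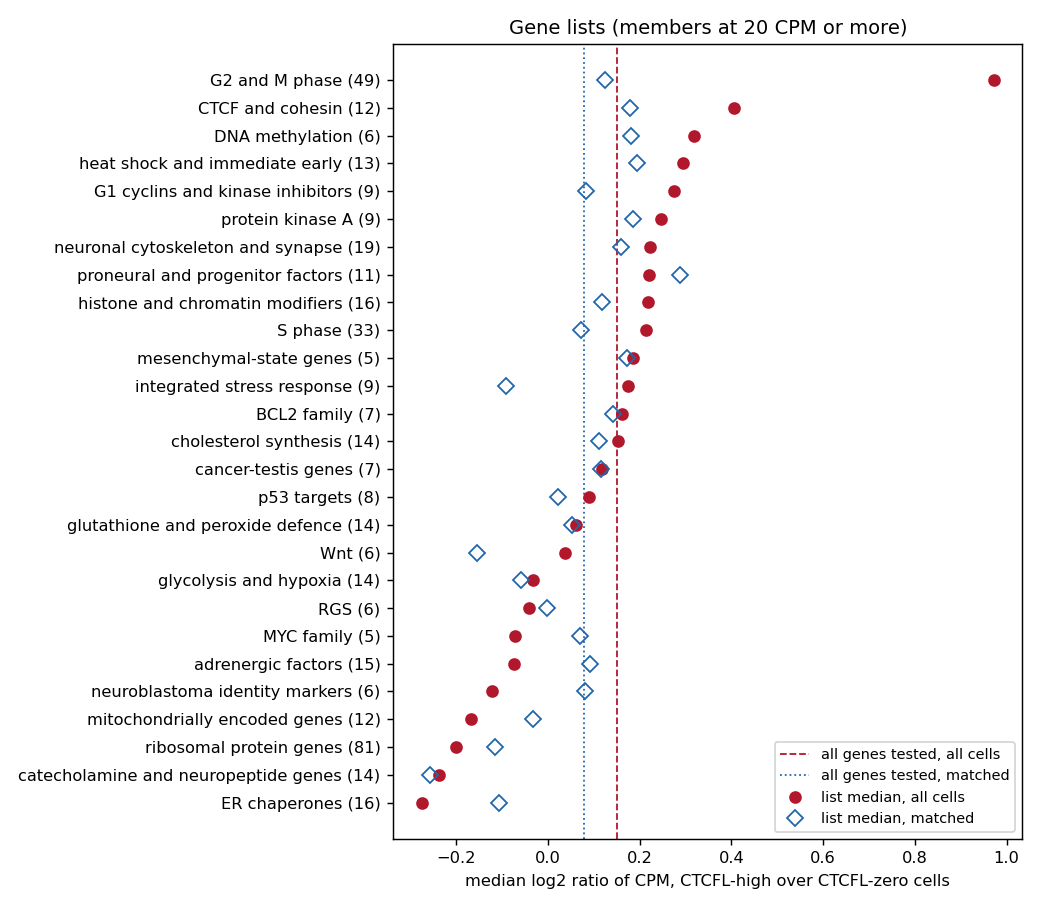
Median log2 ratio of CPM, CTCFL-high over CTCFL-zero cells, of each gene list with at least 5 measured members (number in brackets), in all cells (filled points) and after matching (open diamonds), with the medians of all genes tested as vertical lines. G2 and M phase moves from 0.97 to 0.12, while catecholamine and neuropeptide genes lie at -0.24 and -0.26.

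The split by CTCFL was set beside the difference between libraries, with which it shares the fully resistant cells. Of 289 genes at least 2-fold higher in fully resistant than in sensitive cells, 65 were higher and 28 lower in CTCFL-high cells, beside 16.6% and 2.67% of all genes, with a median of 0.12 against 0.15 for all genes. TMM scaling turned this balance, to 30 higher and 42 lower, beside 6.78% and 5.97% of all genes. Of the 119 measured of 294 genes at least 2-fold lower in that library, 13 were higher and 15 lower, beside 16.6% and 2.67%. Under TMM scaling 7 of these were higher and 26 lower, beside 6.78% and 5.97%. ARHGAP36, an antagonist of protein kinase A, had 336 CPM in fully resistant and 1.88 CPM in sensitive cells, yet 286 CPM in CTCFL-high and 416 CPM in CTCFL-zero cells. PKIB, another such antagonist, had 403 against 330 CPM in the 2 classes. CCND1, cyclin D1, had 400 against 252 CPM. ALK had 7 UMIs in CTCFL-high and 15 in CTCFL-zero cells, and the efflux pump gene ABCB1 had 7 and 2, which is too few for a fold.

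Genes beside CTCFL on chromosome 20 were looked at in the order of GENCODE 29 on GRCh38, matched by Ensembl identifier. Of the 10 nearest tested genes on each side, 2 were higher, the mitotic gene AURKA and LSM14B, and 3 lower, KCNG1, BMP7 and GNAS. Their median log2 ratio was 0.07, against 0.15 for all genes, of which 16.6% were higher and 2.67% lower. GNAS, the stimulatory G protein alpha subunit, had 1261 against 1602 CPM, and BMP7, a bone morphogenetic protein, 22.0 against 35.2 CPM. The closest genes on either side, RBM38 and RAB22A, had ratios of 1.04 (0.952 to 1.13) and 0.994 (0.893 to 1.11).

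Marker genes of fibroblasts, leukocytes and endothelial cells were near absence in both classes. Fibroblast, leukocyte and endothelial markers summed to 9.0, 0.245 and 0.164 CPM in CTCFL-high cells, against 6.86, 0.371 and 1.02 CPM in CTCFL-zero cells. PTPRC, CD3E and CDH5 were at 0 in both. Schwann cell markers summed to 88.6 CPM in CTCFL-high and 85.2 CPM in CTCFL-zero cells, nearly all from the 1 of 4 that was measured, and the defining marker SOX10 had 2 UMIs in CTCFL-high and 0 UMIs in CTCFL-zero cells. Total UMIs, the share of cells in G2/M and the ribosomal share moved with the CTCFL class, and their part in the unmatched differences was not tested beyond the matching for phase and UMI total.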

How the data were processed

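The authors deposited UMI counts per gene and barcode for 3 libraries of 10x Genomics 3' v2 chemistry, without normalization or a barcode filter. Per the submitters' processing notes, bcl2fastq and Cell Ranger were used on hg19, with no versions given. No deposited column was left unused (0 columns). The members and the 34 gene lists were chosen with earlier results of these data known, and they support nothing beyond their values.

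Cells had at least 9500 UMIs, 500 genes and at most 20% mitochondrial UMIs, and the median cell held 16555 UMIs (sensitive), 16036.5 UMIs (intermediate resistant) or 16488 UMIs (fully resistant). Each cell was thinned once to 9500 UMIs with a fixed seed. UMIs without CTCFL were summed per class and given as CPM. Doublets were not called or removed, and cells above 30000 UMIs were left out as an alternative. Ratios carry exact conditional Poisson, levels exact Poisson and shares exact Clopper-Pearson 95% intervals, for counting error only. A class with fewer than 3 UMIs of a gene was set to 3 in ratios. Phases were called with scanpy 1.11.5 (Python 3.11.15, numpy 2.4.6, scipy 1.17.1, pandas 2.3.3) on log1p counts, from 52 G2 and M phase and 40 S phase genes. Matching weighted CTCFL-zero cells by phase and bins of 2000 UMIs. The code was tested on simulated data.

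Named genes were the 12 highest and 12 lowest ratios at 50 CPM or more, without mitochondrially encoded, ribosomal protein and clone-named genes, up to 3 members of each list at 20 CPM or more by absolute log2 ratio, and a fixed set around ALK, MYCN and CTCF. Some genes that this rule covers are not reported here. Other genes given were chosen after their values were seen. Coordinates on hg19 were not used here, since the reference at hand was GRCh38, and gene order came from GENCODE 29, in which 99.2% of tested genes were matched.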

Additional observations from a re-analysis of the deposited data

How the results depend on the processing

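Of 78 named genes called in the main comparison, 65 kept the sign of their log2 ratio in all 14 settings that recompute it. The others changed sign within a phase or after matching. Within G1 cells the log2 ratio was -0.41 for PSRC1, -0.090 for AURKA, -0.0066 for CENPE, -0.055 for CDCA3, -0.26 for PRC1, -0.47 for CDK1, -0.11 for SGOL2 and 0.039 for BBC3. Within S cells it was -0.22 for PIF1 and -0.084 for CENPE, and within G2/M cells -0.11 for ETV1. After matching it was -0.028 for CDCA3, -0.014 for MBD3, -0.039 for RAD51AP1 and -0.11 for PDE4D. The number of genes higher in CTCFL-high cells and the number of genes lower in CTCFL-high cells were 521 and 484 without mitochondrial and ribosomal genes in the totals, 335 and 295 under TMM scaling and 339 and 293 under median-of-ratios scaling. Matching for phase and UMI total gave 427 higher genes. G1 cells alone gave 246 lower genes, and G2/M cells alone 449 higher and 238 lower. A class of at least 6 CTCFL UMIs gave 1394 and 211. A minimum of 5 CPM gave 1873 and 456, of 50 CPM 390 and 65, and none 3476 and 1948, with more or fewer genes tested. A ratio of at least 1.5 gave 176 and 47, and an interval wholly past the limit of 25% gave 249 and 71. Counted after thinning, an alternative added after the data were seen, CTCFL-high cells were 5.43% of the library in place of 22.0%. Without thinning, with another seed, with UMI totals alone matched and without cells above 30000 UMIs, both counts stayed within 1.5 times the main ones. The same held at 3 UMIs or more before thinning and with classes set after thinning. The classes set after thinning used a limit of 3 UMIs or more, which 832 cells (14.2%) met. The class of 5.43% was not compared. No paired analysis was possible because each state had 1 library and the labels give no replicate numbers. The depth limits how well a single cell can be placed in a class, and the single library leaves variation between cultures unmeasured.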
